A study of Mus musculus with 12 samples.

Results

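Alternative splicing of the genes for deubiquitinases, ubiquitin-conjugating enzymes and the proteasome was examined in labelled nascent RNA from mouse embryonic stem cells, with and without the m6A methyltransferase METTL3. The genes were chosen by symbol, with no measured value in the rule but with earlier results of these data known: USP, OTU and UCH family deubiquitinases, activating enzymes (Uba), conjugating enzymes (Ube2), SUMO and its proteases (Senp), COP9 signalosome subunits (Cops) and proteasome genes (Psma to Psmg). This gave 154 of the 7263 tested splicing clusters, in 86 genes and with 440 of 20437 introns, and a further 14 clusters with matching symbols were not tested. The symbol pattern also took in *Psmc3ip*, a meiotic recombination factor and no proteasome subunit, with 1 cluster. In 6 of the 154 clusters the name was shared with a second gene. The female 129S x Cast hybrid cells carried *Mettl3* with FKBP12 F36V fused to its C-terminus, and *Xist* inducible with doxycycline, in both conditions. They were grown on inactivated mouse fibroblasts as feeders. The 6 Ctrl samples had no dTAG-13, the small molecule that sends the tagged protein to degradation, and the 6 dTAG samples had 3 h of it. All 12 samples then had 30 min of 4-thiouridine (4sU), which marks newly made RNA, and the clones C3 and H5 each gave 3 replicates per condition. The degron acts on the protein, so the splicing values do not check the loss of METTL3. Only the presence of a tested cluster can be read for marker genes, not a level of expression, and a gene without one may still be expressed. Of 10 stem cell markers 8 had a tested cluster, among them *Nanog*, *Esrrb* and *Sall4*, while *Pou5f1* and *Utf1* had none. Of 8 fibroblast markers that would come from feeders 1 had a tested cluster, *Fn1*, and the share of feeder RNA was not tested.

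Ubiquitin is a small protein that is attached to other proteins by a relay: an activating enzyme (E1) loads it, a conjugating enzyme (E2) carries it, and a ligase (E3) places it on the substrate. Deubiquitinases cut it off again, and the proteasome, a barrel-shaped core particle capped by a regulatory particle, degrades proteins that carry chains of it. SUMO and NEDD8 are related modifiers with enzymes of their own, and the COP9 signalosome removes NEDD8 from cullin ligases. In embryonic stem cells this system turns over cell cycle regulators and pluripotency factors. METTL3 writes m6A into RNA, a mark that has been studied for its effects on RNA decay, translation and splicing.

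LeafCutter, the program the authors used, groups overlapping introns with a common donor or acceptor as a cluster. The percent spliced in (PSI) of an intron is its part of all split reads counted for the cluster, from 0 to 1, and deltaPSI is the dTAG PSI minus the Ctrl PSI. The tables hold 1 fitted PSI per intron and condition, over both clones, and 1 p-value per cluster. Values per sample, standard errors and read depth are unknown here, so a difference can be set against the spread of replicates only through that p-value. In RNA pooled from many cells, fewer cells using a site and less use of it per cell cannot be told apart.

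Few clusters of these genes passed the thresholds below. In the authors' deposited likelihood-ratio test, 8 of the 154 clusters (5.19%) had a p-value of at most 0.05, against 6.84% of all tested clusters. With Benjamini-Hochberg adjustment over all 7263 clusters, 0 of the 154 had an adjusted p under 0.05, against 0.702% of all, while the LeafCutter p-value was at most 0.05 in those 8. At an adjusted p under 0.2 there were 2, *Ube2s* and *Psmd4*, against 1.58% of all. The largest absolute deltaPSI in a cluster reached 0.1 in 6 of 154 (3.90%), against 4.63% of all. Its median was 0.0164 over the 154 clusters and 0.0214 over all tested clusters, and 135 of 154 (87.7%) stayed below 0.05, against 80.2% of all. In 51 of the 154 (33.1%) 1 intron had a Ctrl PSI of at least 0.9, against 29.1% of all. Whether this bears on the lower median was not tested. The shares of called clusters thus lay near the background. Since no cluster passed the adjusted threshold, the values below are given as higher or lower in dTAG, with the unadjusted p beside them.

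**Figure D1:**
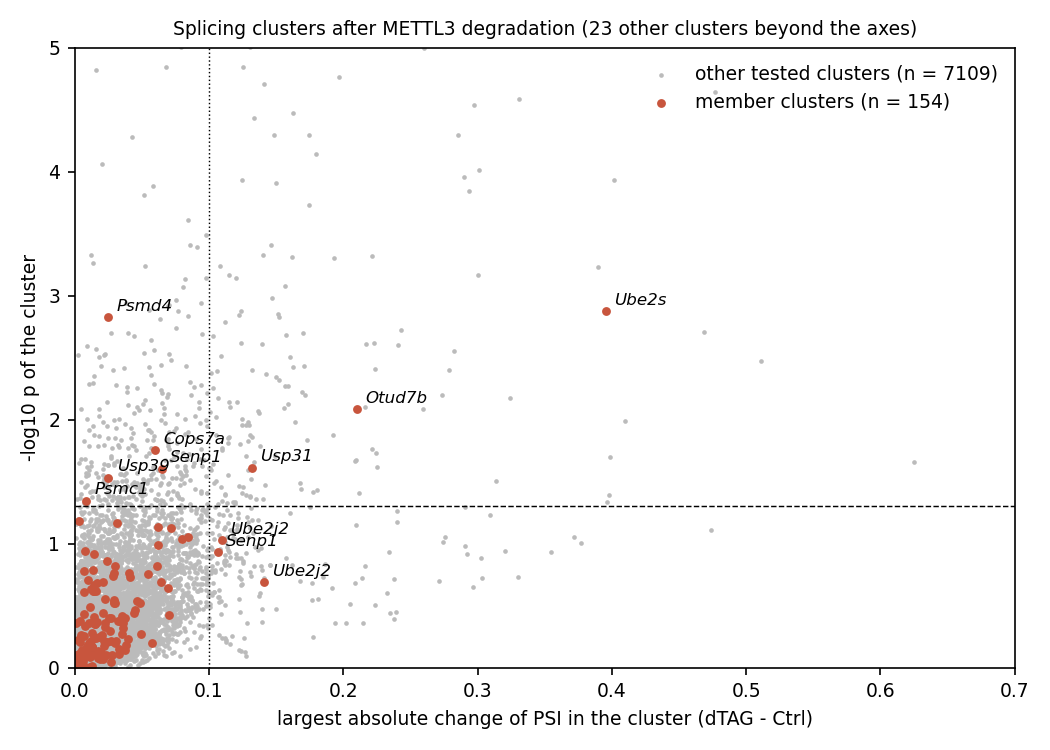
Each point is a tested splicing cluster, with the largest absolute change of PSI on the x axis and -log10 of its p-value on the y axis; red points are the 154 member clusters, grey points the other tested clusters, and 23 of the grey points lie beyond the axes. The dashed line marks the p threshold and the dotted line a change of 0.1, and 3 member clusters, in *Ube2s*, *Otud7b* and *Usp31*, lie beyond both.

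The largest difference was in *Ube2s*, which encodes the E2 that lengthens ubiquitin chains for the anaphase-promoting complex. Its cluster on the minus strand of chromosome 7 (mm10) surrounds a coding exon of 191 nt at chr7:4810422-4810612. The exon is shown in capitals with 10 intron bases on each side, because both introns that flank it changed share:
Ube2s exon: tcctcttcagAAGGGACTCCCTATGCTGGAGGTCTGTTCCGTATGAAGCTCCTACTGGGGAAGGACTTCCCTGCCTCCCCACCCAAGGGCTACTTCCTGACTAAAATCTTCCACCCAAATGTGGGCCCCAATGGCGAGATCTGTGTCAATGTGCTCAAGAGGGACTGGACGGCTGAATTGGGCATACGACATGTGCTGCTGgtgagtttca
Intron 2, of 796 nt and upstream of the exon, had a PSI of 0.566 in Ctrl and 0.170 in dTAG. Intron 3, of 1937 nt and downstream of it, had 0.395 in Ctrl and 0.759 in dTAG. The junction that skips the exon, absent from GENCODE vM21, had 0.0391 in Ctrl and 0.0706 in dTAG. The p-value of the cluster in the authors' table was 0.00133, with an adjusted p of 0.121. An included exon gives a split read at each flank, so inclusion can be measured as the mean of both flanking PSIs over that mean plus the skipping PSI. By this measure inclusion of the *Ube2s* exon was 0.925 in Ctrl and 0.868 in dTAG. The difference was thus mainly in the split reads of 2 consecutive introns relative to each other, and less in inclusion against skipping. One coding transcript holds both introns, so they are not alternatives and their shares show no switch between splice forms. Both introns have GT-AG ends, and 30 bases around their donors and acceptors are given with these ends in capitals:
Ube2s intron 2 donor: gagggccctgGTgagtgtgagcacggaagg
Ube2s intron 2 acceptor: agcagccccttttcctcctcttcAGaaggg
Ube2s intron 3 donor: tgtgctgctgGTgagtttcagccatggtac
Ube2s intron 3 acceptor: ctgaccttagaccctttcttcacAGaccat
Without the exon the reading frame would end after 59 residues in place of 223.

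**Figure D2:**
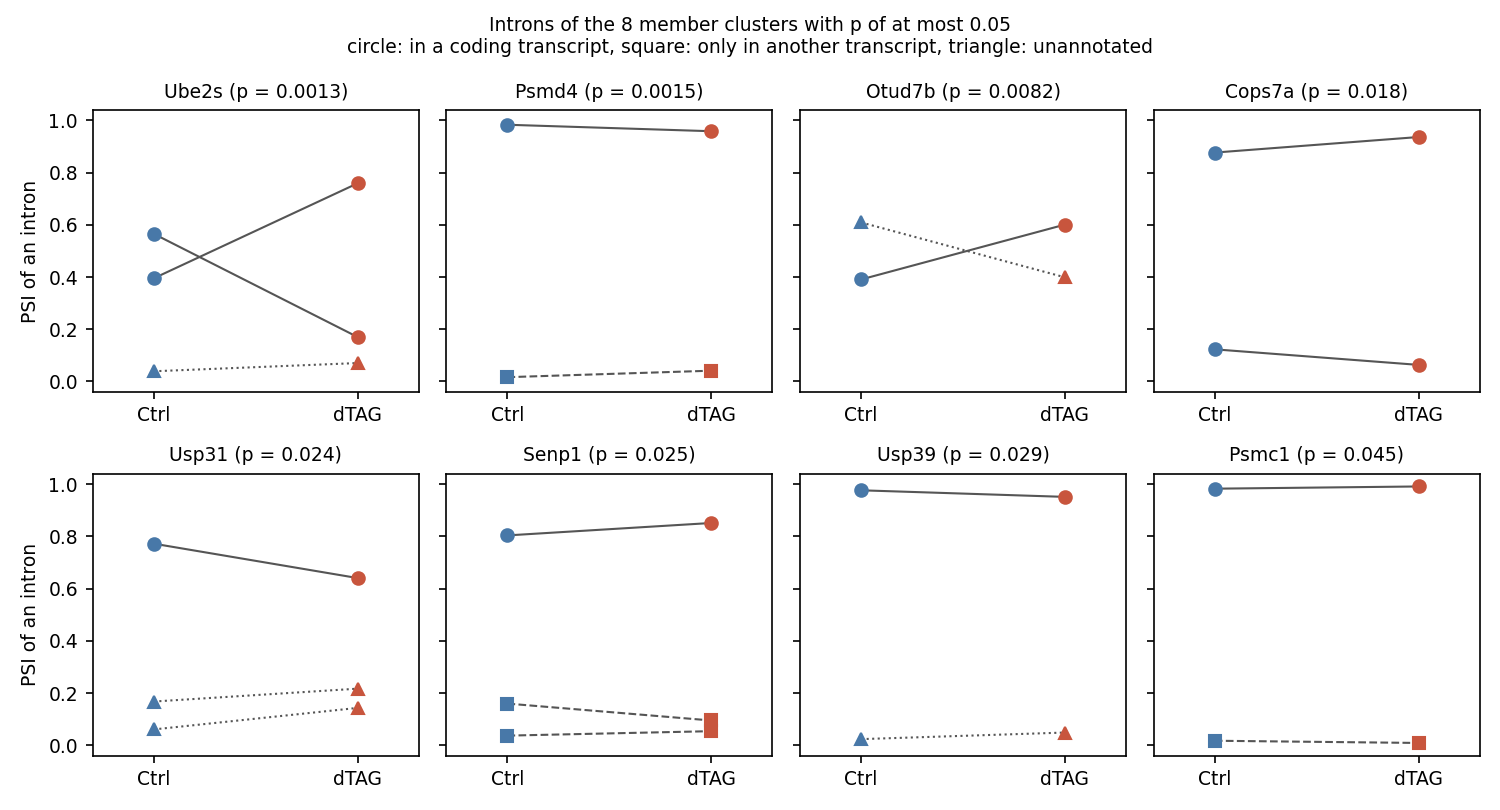
PSI of every intron in the 8 member clusters with a p-value of at most 0.05, fitted by the authors over 6 Ctrl and 6 dTAG samples, with no error bars because no value per sample was given. Lines join the Ctrl and dTAG values of an intron; the *Ube2s* and *Otud7b* lines cross, while the other clusters keep their main intron, which stays above 0.6.

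*Otud7b*, a deubiquitinase of the OTU family, had the second largest difference. Its intron 3 on the plus strand of chromosome 3 is joined to 2 acceptors 134 nt apart. The annotated first acceptor had a PSI of 0.391 in Ctrl and 0.601 in dTAG. The second acceptor, absent from the annotation and inside the coding exon, had 0.609 in Ctrl and 0.399 in dTAG. In Ctrl the unannotated site was therefore the main one, and in dTAG the annotated one. The p-value in the authors' table was 0.00816, with an adjusted p of 0.335. The 134 nt that only the first acceptor keeps in the exon are in capitals (chr3:96141478-96141631 with 10 bases on each side), since the choice adds or removes exactly these bases:
Otud7b between acceptors: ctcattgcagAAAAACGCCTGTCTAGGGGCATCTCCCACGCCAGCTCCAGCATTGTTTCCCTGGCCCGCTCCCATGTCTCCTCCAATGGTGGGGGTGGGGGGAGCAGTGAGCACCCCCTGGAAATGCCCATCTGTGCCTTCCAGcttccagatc
The length is no multiple of 3, and use of the second acceptor would end the frame after 111 residues in place of 840.

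*Usp31*, of the USP family, had a higher share of an exon that GENCODE vM21 does not hold. The exon of 129 nt lies in intron 11 on the minus strand at chr7:121662729-121662857 and is shown in capitals:
Usp31 exon: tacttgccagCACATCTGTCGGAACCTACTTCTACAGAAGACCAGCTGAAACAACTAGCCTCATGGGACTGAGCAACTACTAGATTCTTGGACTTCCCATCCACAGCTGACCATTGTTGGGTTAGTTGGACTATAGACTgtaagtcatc
The junction that skips it had a PSI of 0.772 in Ctrl and 0.640 in dTAG. The junction upstream of it had 0.167 in Ctrl and 0.217 in dTAG, and the junction downstream 0.0605 in Ctrl and 0.143 in dTAG. Both flanks moved the same way, unlike in *Ube2s*, and inclusion was 0.129 in Ctrl and 0.219 in dTAG. The p-value in the authors' table was 0.0243, with an adjusted p of 0.571. The exon keeps the reading frame by length but holds an in-frame stop codon, so that a transcript with it would encode 615 residues in place of 1344.

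*Senp1*, a SUMO protease, has an exon of 131 nt at chr15:98076912-98077042. The introns that flank it are annotated in transcripts marked for nonsense-mediated decay and in no coding transcript. This pathway degrades mRNA with an early stop codon. The exon is shown in capitals for comparison with *Usp31*:
Senp1 exon: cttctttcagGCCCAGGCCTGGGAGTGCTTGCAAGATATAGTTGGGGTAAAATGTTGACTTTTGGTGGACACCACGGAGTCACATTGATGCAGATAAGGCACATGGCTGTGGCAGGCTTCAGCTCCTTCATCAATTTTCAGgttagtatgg
The skipping junction had a PSI of 0.804 in Ctrl and 0.851 in dTAG. The junction downstream of the exon had 0.159 in Ctrl and 0.0948 in dTAG, while the upstream one had 0.0368 in Ctrl and 0.0538 in dTAG. The flanks moved in opposite directions, and inclusion was 0.109 in Ctrl and 0.0803 in dTAG. The p-value in the authors' table was 0.0248, with an adjusted p of 0.575. Of the other 3 *Senp1* clusters, the one at the first exons, which shares its name with the predicted gene *Gm26513*, had a largest deltaPSI of -0.107. There the first intron of a coding transcript had a PSI of 0.401 in Ctrl and 0.498 in dTAG, at a p-value of 0.117 in the authors' table.

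The regulatory particle of the proteasome held 2 of the called clusters, both with small differences at a minor site. *Psmd4* encodes a ubiquitin receptor of this particle. Its intron 2 on the minus strand of chromosome 3 has 2 donors 28 nt apart, and the later one, annotated neither in a coding nor in a decay transcript, had a PSI of 0.0164 in Ctrl and 0.0413 in dTAG. The main donor had 0.984 in Ctrl and 0.959 in dTAG, at a p-value of 0.00150 and an adjusted p of 0.128 for the authors' test. *Psmc1* encodes an ATPase of the particle's base. At its intron 4 on the plus strand of chromosome 12 the later of 2 acceptors 49 nt apart had a PSI of 0.0172 in Ctrl and 0.00871 in dTAG, at a p-value of 0.0449 and an adjusted p of 0.6997 in the authors' table. The bases between the sites are in capitals, kept in the exon by the later *Psmd4* donor (chr3:95036567-95036614) and removed by the later *Psmc1* acceptor (chr12:100115410-100115478):
Psmd4 between donors: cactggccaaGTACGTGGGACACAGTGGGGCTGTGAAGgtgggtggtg
Psmc1 between acceptors: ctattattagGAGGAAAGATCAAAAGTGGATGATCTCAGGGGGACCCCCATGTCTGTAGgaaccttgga
The minor *Psmd4* form would end after 65 residues in place of 379 and the minor *Psmc1* form after 122 in place of 440. The first was higher in dTAG and the second lower.

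Of the remaining called clusters, *Cops7a*, a COP9 signalosome subunit, has 2 acceptors 865 nt apart behind a shared donor on the minus strand of chromosome 6. The nearer one, reached over an intron of 161 nt, had a PSI of 0.877 in Ctrl and 0.936 in dTAG. The farther one, reached over 1026 nt, had 0.123 in Ctrl and 0.0635 in dTAG, at a p-value of 0.0176 in the authors' table. *Usp39* belongs to the USP family by sequence and is known as a component of the spliceosome's tri-snRNP. An unannotated donor inside its intron 10 on the minus strand of chromosome 6 leaves an intron of 113 nt in place of 4254 nt, and had a PSI of 0.0234 in Ctrl and 0.0486 in dTAG, at a p-value of 0.0293 in the authors' table. The sites behind these differences are shown with the donor GT or acceptor AG in capitals:
Cops7a nearer acceptor: cctctctctctcttccccttgccAGactcc
Cops7a farther acceptor: ttctgtctttgatgtttgttaacAGggaga
Usp39 annotated donor: tccctatcacGTgtgtatcaccctgcttcc
Usp39 unannotated donor: cctcgaagagGTaggaccctaaagttaaca
At the first intron of *Usp39* an unannotated donor 7 nt upstream of the annotated one had 0.0773 in Ctrl and 0.140 in dTAG, at a p-value of 0.102 in the authors' table.

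By role, the USP deubiquitinases made up the most clusters, 62 in 28 genes, of which 2 had a p-value of at most 0.05 and 1 a deltaPSI of at least 0.1. Their median largest deltaPSI was 0.0175. Over all tested clusters 6.84% had such a p-value and 4.63% such a deltaPSI, the background for each count by role. The 5 OTU genes had 8 clusters with a median of 0.0217, and 1 was called. The 4 UCH genes had 7 clusters, a median of 0.0128 and none called, and the smallest p-value in the authors' table was 0.399, in *Bap1*, which removes ubiquitin from histone H2A. Conjugating enzymes had the highest median of the groups with more than 1 cluster, 0.0277 over 23 clusters in 14 genes, with 1 called and 3 at a deltaPSI of at least 0.1. These 3 were the *Ube2s* cluster and 2 clusters of *Ube2j2*, the latter 2 not called. The 3 activating enzyme genes had 4 clusters with a median of 0.0180 and none called. Among them *Uba3*, the catalytic part of the NEDD8-activating enzyme, had the smallest p-value, 0.162 in the authors' table. SUMO and its proteases had 14 clusters in 6 genes, a median of 0.0178 and 1 called.

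Grouped by symbol, the core and regulatory particles of the proteasome had the lowest medians of the groups with more than 1 cluster. The core particle had 3 clusters, in *Psma1*, *Psma3* and *Psmb1*, with largest deltaPSI between 0.00119 and 0.0145 and none called. *Psma1*, an alpha ring subunit, had the smallest p-value of these, 0.115 in the authors' table. The main intron of the *Psma1*, *Psma3* and *Psmb1* clusters had a Ctrl PSI of 0.990, 0.952 and 0.985, which leaves little share to the other introns. Whether this bears on the low median was not tested. The *Psmc* and *Psmd* genes, counted as the regulatory particle, had 12 clusters in 8 genes with a median of 0.0101. This symbol group holds assembly chaperones beside the subunits. Its widest difference was in *Psmd9*, an assembly chaperone of the base, at 0.0693 with a p-value of 0.229 in the authors' table. In the subunit gene *Psmd4* the largest deltaPSI was 0.0249. Activators, inhibitor and chaperones of the core particle had 8 clusters in 5 genes, a median of 0.0201 and none called. *Psme4*, the activator that is known for acetylated histones, had 3 of these clusters. The COP9 signalosome had 12 clusters in 8 genes with a median of 0.0192 and 1 called. The *Psmc3ip* cluster, outside these families, had 0.0545 at a p-value of 0.176 in the authors' table. The counts of called clusters stand beside 6.84% of all tested clusters, and differences between the role groups were not tested.

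**Figure D3:**
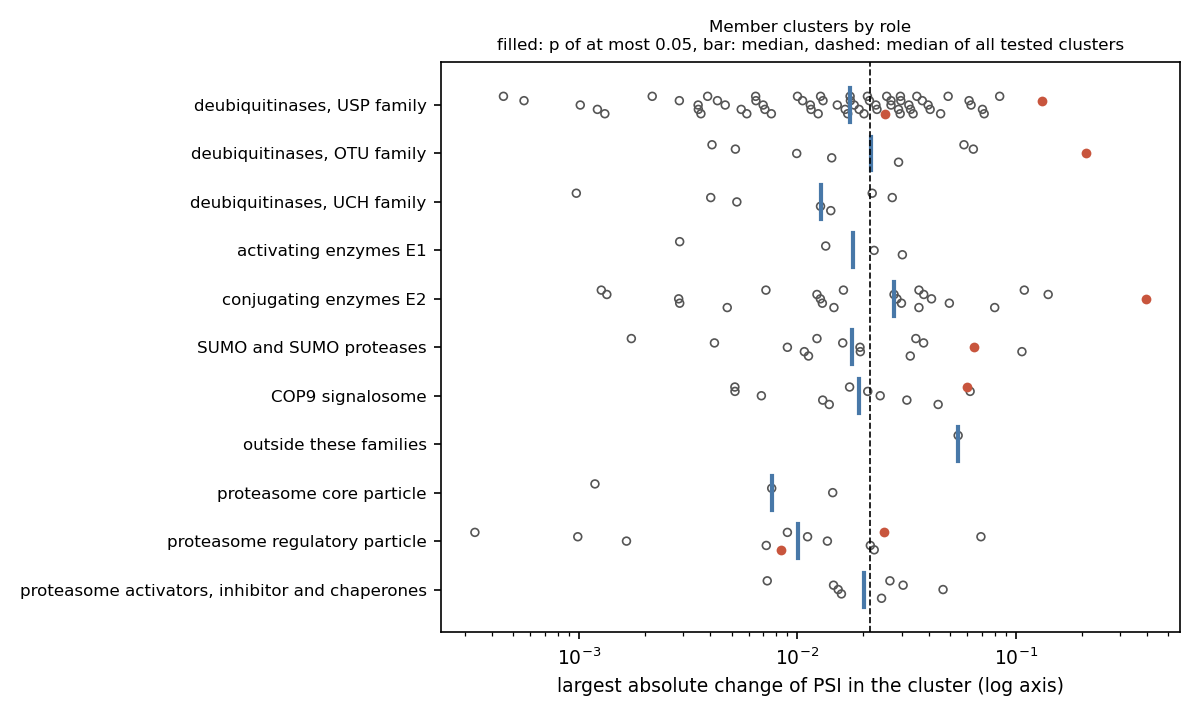
Largest absolute change of PSI per cluster on a log axis, by the role of the gene; filled points have a p-value of at most 0.05, blue bars are group medians and the dashed line is the median of all tested clusters, 0.0214. A cluster that names genes of 2 roles is drawn in both, and 1 cluster is not drawn. The medians of the conjugating enzymes and the OTU family lie right of the dashed line or on it. The bar outside these families, right of the line at 0.0545, is the single *Psmc3ip* cluster.

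Among clusters with a p-value above 0.05, the widest differences were again in conjugating enzymes, in *Ube2j2*, an E2 anchored in the endoplasmic reticulum membrane for the disposal of misfolded proteins. In one of its clusters intron 6 had a PSI of 0.456 in Ctrl and 0.597 in dTAG, while the next intron, 7, had 0.444 in Ctrl and 0.321 in dTAG, at a p-value of 0.203 in the authors' table. As in *Ube2s*, the relative split-read shares differed at consecutive introns of one coding transcript, which are not alternatives to each other. In the other, at the first exons, one of 5 introns had 0.339 in Ctrl and 0.230 in dTAG and another 0.0179 in Ctrl and 0.108 in dTAG, at a p-value of 0.0940 in the authors' table. *Ube2j1*, the related E2 of the same membrane, had an exon of 120 nt with an inclusion of 0.787 in Ctrl and 0.881 in dTAG, at a p-value of 0.0916 in the authors' table, although its upstream junction was lower and its downstream one higher. The exon keeps the frame, and is the part by which forms of 318 and 278 residues differ, so its bases are given in capitals (chr4:33045070-33045209 with flanks):
Ube2j1 exon: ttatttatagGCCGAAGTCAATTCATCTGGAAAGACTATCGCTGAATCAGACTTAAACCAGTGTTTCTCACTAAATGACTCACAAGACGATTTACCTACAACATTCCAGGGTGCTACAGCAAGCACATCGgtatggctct
*Usp24* had an unannotated exon of 64 nt in intron 16 on the plus strand of chromosome 4, shown because, like the *Usp31* exon, it is missing from the annotation:
Usp24 exon: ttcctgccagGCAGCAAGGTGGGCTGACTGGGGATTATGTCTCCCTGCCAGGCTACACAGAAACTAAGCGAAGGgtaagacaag
Its inclusion was 0.0581 in Ctrl and 0.108 in dTAG, with both flanks higher, and the p-value in the authors' table was 0.0887. The frame would end after 636 residues in place of 2618. *Usp37* had an exon of 33 nt before the coding sequence with an inclusion of 0.157 in Ctrl and 0.110 in dTAG, at a p-value of 0.0747 in the authors' table. In *Usp40* and *Psmd9* the flanking junctions moved in opposite directions, and inclusion differed by 0.0219 and 0.0104.

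Across the members, 55 clusters (35.7%) had the 3 junctions of a cassette exon, against 33.2% of all tested clusters. Inclusion differed by at least 0.1 in 0 of these 55, against 3.57% of the 2411 cassette clusters of the whole table; the LeafCutter p-value was at most 0.05 in 3 of the 55 and in 5.60% of all cassette clusters. The widest inclusion differences were 0.0941 in *Ube2j1*, 0.0906 in *Usp31* and -0.0747 in *Ube2t*, the last named after its value was seen. Median inclusion was 0.921 in Ctrl and 0.892 in dTAG, but the median of the changes was 0.00107. Inclusion was higher in dTAG in 30 of the 55 stretches and lower in 25, while over all cassette clusters it was higher in 1035 and lower in 1376. In 42 of the 55 (76.4%) the upstream and downstream junctions changed in opposite directions, against 70.7% of all cassette clusters. The 3 PSIs of such a cluster sum to 1, so where skipping is rare, a higher share at one flank means a lower share at the other. In 40 of the 55 the stretch was mostly included in Ctrl, so opposite directions follow largely from the measure. Of the 3 member clusters in which both junctions changed by at least 0.05, *Ube2s*, *Psmd9* and *Usp40*, all 3 did so in opposite directions, and 87.8% of 131 such clusters in the whole data set did. In clusters of this kind a large deltaPSI of an intron is thus not a measure of exon inclusion. The stretches in *Usp40* and in 1 *Senp6* cluster, 5739 and 2804 nt long, hold further introns and are not single exons.

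**Figure D4:**
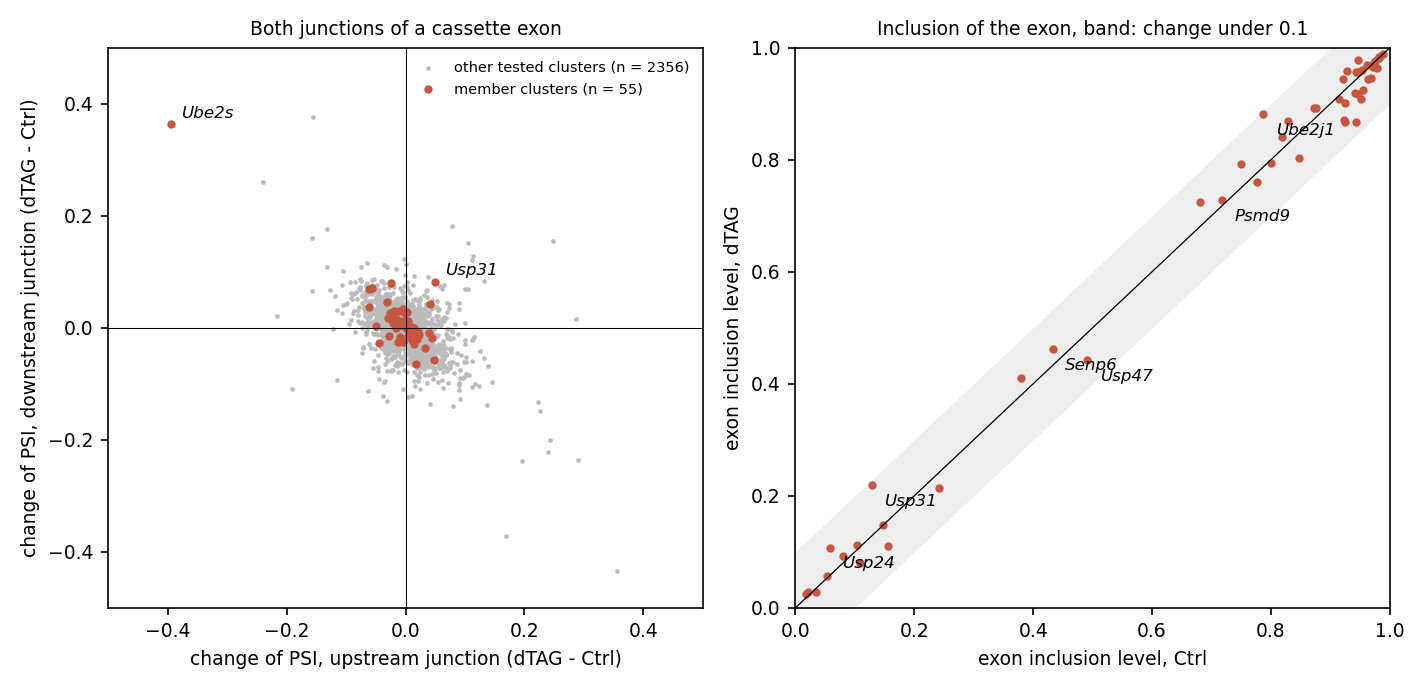
Left, change of PSI (dTAG minus Ctrl) of the upstream and the downstream junction of each cassette exon; right, inclusion level of the 55 member stretches in Ctrl and dTAG, 2 of which hold further introns, with a grey band for changes under 0.1. *Ube2s* lies far from 0 on both axes of the left plot with opposite signs, and all 55 points of the right plot lie inside the band.

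Of the 154 clusters, 45 were a choice between 2 acceptors (29.2%, against 25.2% of all) and 27 a choice between 2 donors (17.5%, against 22.2%). In 17 of the 45 the acceptors lay at most 10 nt apart (37.8%, against 37.5% of all acceptor pairs), and 9 of the 17 were 3 nt apart, where the choice adds or removes 1 codon. None of the 17 had a p-value of at most 0.05 in the authors' table, against 6.6% of all acceptor pairs at any distance. The share over all pairs at most 10 nt apart was not computed, so this count is no trait of these sites. At 3 nt, the less used site had a Ctrl PSI between 0.0319 and 0.470, with a median of 0.189. At 4 nt, in *Otud6b*, *Psmc3*, *Uchl1* and *Usp7*, where the second site shifts the frame, it had between 0.00678 and 0.0799, and the first site was the main one in all 4. At 3 nt the first site was the main one in 7 of 9, and *Usp34* and *Usp48* used the second. Examples from both ends of this range are given as 30 bases with each AG in capitals:
Uchl5, 3 nt: tgtttcttttttttccccctaAGgAGgaac
Otud4, 3 nt: tgatgtttctttctggtgttcAGcAGgtta
Usp30, 3 nt: tcagtctcctcttttccctacAGcAGcagt
Usp48, 3 nt: ttaacgctctttcttttccatAGcAGtgat
Usp34, 3 nt: tatcttctccctctttttatcAGcAGccca
Usp7, 4 nt: gctcagctttctatgccttcAGatAGttgc
Psmc3, 4 nt: acttcttctcttatttgaacAGcaAGatgg
The second site had a PSI of 0.470 in Ctrl and 0.457 in dTAG in *Uchl5*, a deubiquitinase of the proteasome's regulatory particle. In *Otud4* it had 0.379 in Ctrl and 0.3498 in dTAG, and in *Usp30*, a deubiquitinase of the mitochondrial outer membrane, 0.352 in Ctrl and 0.315 in dTAG. In *Usp48* it had 0.714 in Ctrl and 0.726 in dTAG, and in *Usp34* 0.903 in Ctrl and 0.910 in dTAG. The conditions thus differed by at most 0.0373 at these 5 sites. The widest difference of the 17 was in *Usp19*, where acceptors 6 nt apart had 0.224 in Ctrl and 0.179 in dTAG for the second site, at a p-value of 0.345 in the authors' table.

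**Figure D5:**
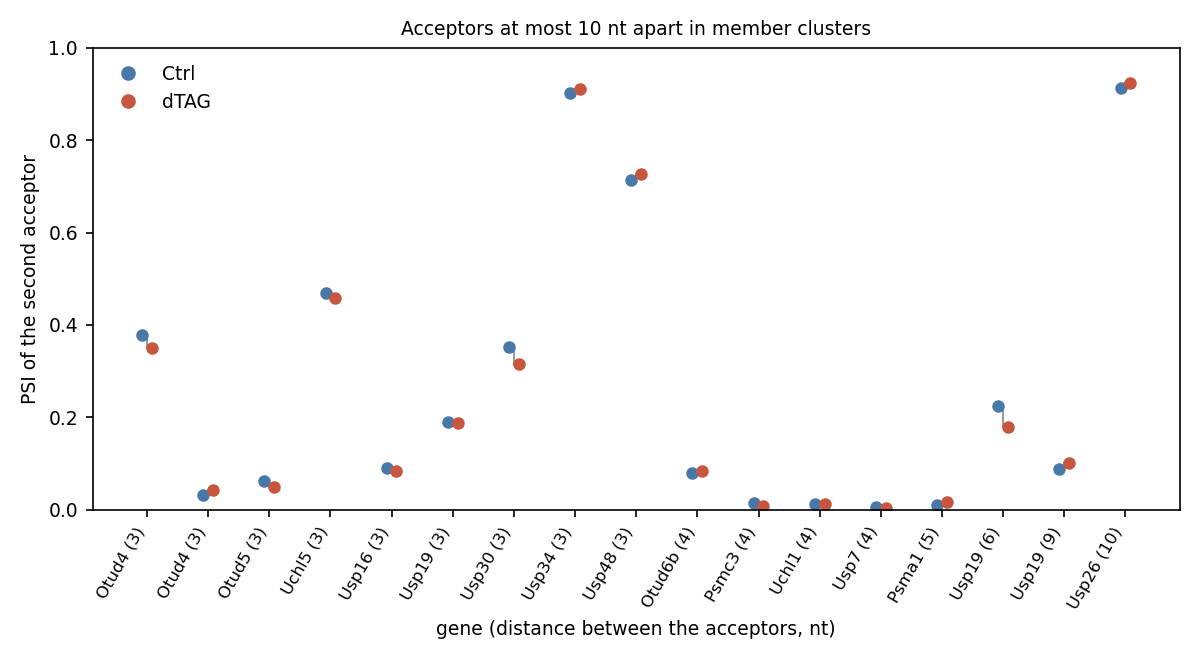
PSI of the second acceptor in Ctrl (blue) and dTAG (red) for the 17 member clusters whose 2 acceptors lie at most 10 nt apart, with the distance in nt after each gene name. The sites cover the range from under 0.01 in *Usp7* to over 0.9 in *Usp34* and *Usp26*, and the 2 conditions lie close together at each.

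The genes with the most tested clusters were *Usp7*, a deubiquitinase of the p53 regulator MDM2, with 7 clusters, and *Usp28*, which acts on MYC stability, with 5. Another 7 genes had 4 clusters each: *Senp1*, *Senp6*, *Usp9x*, *Usp19*, *Usp34*, *Usp37* and *Usp48*. The largest deltaPSI of the 7 *Usp7* clusters lay between 0.000452 and 0.0268, and the smallest of their p-values in the authors' table was 0.0651. Those of *Usp28* lay between 0.00122 and 0.0406, with a smallest p-value of 0.172 in the authors' table. Several clusters of one gene come from the same transcripts and are not independent.

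Of the 440 introns, 111 (25.2%) were absent from GENCODE vM21, against 25.3% of all introns of tested clusters, and 84 of 154 clusters held at least 1 of them. Their median Ctrl PSI was 0.0272 among the members and 0.0415 over all. The summed share of unannotated introns was higher in dTAG in 38 of the 84 clusters (45.2%) and lower in 46, against 52.4% higher over all clusters with such introns, and its median change was -0.000601. It differed by at least 0.05 in 4 of the 84 (4.76%), against 8.18% of all clusters with such introns. Introns found in decay transcripts and in no coding transcript occurred in 15 clusters. Their summed share was higher in 6 and lower in 9, against 445 higher and 341 lower over all tested clusters with such introns.

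For 99 clusters with a cassette exon or with 2 sites at most 200 nt apart inside the coding sequence, the alternative form was set into a complete annotated coding transcript. In 52 of them it gave a stop codon over 50 nt before the last exon junction, the usual position for nonsense-mediated decay. These forms had a median share of 0.0566 in Ctrl and 0.0606 in dTAG, and were higher in dTAG in 28 clusters and lower in 24. The unannotated *Otud7b* acceptor was the only one of the 52 forms that was the main form of its cluster in Ctrl, and the only one that differed by at least 0.1. In the authors' test 5 of the 52 had a p-value of at most 0.05, against 6.84% of all tested clusters of any type. In these 5 the form with the early stop was higher in dTAG in *Psmd4* and *Usp31* and lower in *Otud7b*, *Senp1* and *Psmc1*. Reading frames were set for member clusters only, so the same counts for early-stop forms over all tested clusters are unknown here. The 38 forms that kept the frame without an early stop had a median Ctrl share of 0.0905.

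The motif GGACT, a frequent core of m6A sites, was searched on the transcribed strand within 100 nt on each side of the splice sites. It occurred at 50 of 293 member donors (17.1%), against 18.97% of all donors of tested clusters, and at 53 of 296 member acceptors (17.9%), against 16.1% of all acceptors. Of the called clusters, *Usp31* had it at 3 of its sites, *Ube2s* at 2, *Otud7b*, *Cops7a* and *Usp39* at 1 each, and *Psmd4*, *Senp1* and *Psmc1* at 0. A match is a run of letters and not a measured m6A site. Of the 440 introns, 433 had GT-AG ends and 7 GC-AG ends (1.59%, against 0.945% of all).

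Of 71 other genes of the ubiquitin system, such as precursors, further deubiquitinases, shuttling factors and enzymes of related modifiers, 39 had 54 tested clusters. A p-value of at most 0.05 in the authors' test was found for 3 of the 54 (5.56%, against 6.84% of all tested clusters), and 0 had an adjusted p under 0.05, against 0.702% of all. The largest deltaPSI reached 0.1 in 4 of the 54, a higher share than the 4.63% of all tested clusters. Its median was 0.0214, which is also the median over all tested clusters to this precision. *Uspl1*, a SUMO protease of Cajal bodies, had 3 acceptors behind one donor, the first with a PSI of 0.736 in Ctrl and 0.868 in dTAG, at a p-value of 0.00393 in the authors' table. *Pias2*, a SUMO ligase, had an acceptor with 0.189 in Ctrl and 0.398 in dTAG, at a p-value of 0.0211 in the authors' table. *Atg7*, the E1-like enzyme of autophagy, had a skipping junction with 0.415 in Ctrl and 0.246 in dTAG, at a p-value of 0.0362 in the authors' table.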

How the data were processed

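Nascent (4sU-labelled) RNA of 6 Ctrl and 6 dTAG samples was sequenced by the authors from stranded total RNA libraries and aligned to mm10 with STAR 2.5.2b, per the labels. LeafCutter formed the clusters and compared the conditions over both clones. The authors deposited a fitted PSI per intron and condition, as a fraction from 0 to 1, and a p-value per cluster. These replicates measure the spread between samples of 2 clones. Deposited adjusted p-values, effect sizes and log-likelihood ratios were not used. Depth and values per sample were not analysed here.

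Adjusted p-values (Benjamini-Hochberg) were recomputed over all 7263 tested clusters, and deltaPSI was taken as dTAG minus Ctrl. Deposited coordinates are the exon bases beside each intron, and read this way in GRCm38, the 440 member introns began with GT or GC and ended with AG on the strand of the gene. Annotation was GENCODE vM21. Named genes were those with a cluster at a p-value of at most 0.05, those of the 8 next clusters by deltaPSI, the smallest p-value of each role, the genes with the most clusters (with ties), and called genes of the other list; further genes beside tandem sites were named after their values were seen. The values of 1 cluster are not reported here. The members and lists were chosen with earlier results of these data known, and inclusion levels and reading frames were added after the tables were read. Adjustment, geometry and inclusion were tested on simulated data. Alternatives were the gene name filter, rare introns, thresholds and adjustments. Python 3.11.15, numpy 2.4.6, pandas 2.3.3, pysam 0.24.0, statsmodels 0.14.6 and matplotlib 3.10.9 were used.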

Additional observations from a re-analysis of the deposited data

How the results depend on the processing

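No paired analysis was possible because the tables hold 1 fitted value per condition, and for the same reason no replicate could be left out and no depth could be read. The count of 8 clusters with a p-value of at most 0.05 in the authors' test became 3 of 154 at p under 0.01, against 2.67% of all tested clusters. Requiring at least 2 introns at a PSI of 0.05 drops the minor sites of *Psmd4*, *Usp39* and *Psmc1*. The count then was 5 of 125, against 7.07% of all. It stayed at 8 without clusters of several names, without *Psmc3ip*, and counted as genes. The count of 0 at an adjusted p under 0.05 was 0 by Bonferroni, by Benjamini-Yekutieli and without clusters of several names, and 2 at an adjusted p under 0.2. The 6 clusters with a deltaPSI of at least 0.1 became 19 of 154 at 0.05, against 19.8% of all 7263 tested clusters. At 0.2 they became 2 of 154, against 1.14% of all. For the single clusters chosen by the naming rule, the other adjustments and the name filter leave deltaPSI as it is, and stricter adjustments cannot make a call, so these say nothing about stability. When rare introns were dropped, 5 of the 22 gave no value.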
